A study of Rattus norvegicus with 10 samples.

Results

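Among the genes measured in soleus myoblast cultures of rats kept in hindlimb suspension (HS), 22 of 32622 carry immune names and were on at least 1 of the study's lists of genes called against Control. They were taken by the start of their symbol: Ccl, Cxcl, Cx3cl, Il with a digit, Tnf, C1q, C1r, C1s, C2, C3, C4, C6, C7, Cf with a letter, Cd with a digit, Ptgs, Ptger, Irf, Ifi, Isg, Oas, Mx1, Mx2, RT1, Tlr or Csf. *Il1rn* and *Cxcl3* were left out of the rule. The lists hold genes whose log2 fold change was beyond 1.5, at an adjusted p under 0.01, after 1, 3, 7 or 14 days of HS (HS1, HS3, HS7 and HS14), so the members were chosen by their change against Control. These changes are therefore given as a description with no test. The HS1 list held 10 members, the HS3 list 2, the HS7 list 11 and the HS14 list 8, and 16 members were on 1 list only.

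The rats were male Wistar animals about 3 months old, and Control rats lived in vivarium cages without suspension. In HS the hindlimbs are lifted off the floor, so that the soleus, a postural muscle, bears no load. Satellite cells, the stem cells of muscle fibers, were released with collagenase from the muscles of both hindlimbs and put in culture. About 3 days after digestion they were pre-plated to remove faster adhering fibro-adipogenic progenitors. They were then grown for 1 day more before RNA was taken, so that every library is of cultured cells and not of muscle. Each of the 5 groups had 2 libraries, and whether these came from separate animals or cultures was not given in the sources used here. The p-values below then measure only the spread between these libraries, which may be technical.

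Cytokines are secreted proteins that signal through paired receptor chains on other cells. In regenerating muscle, interleukins of the IL-6 and IL-1 families and chemokines pass signals between myogenic cells, fibro-adipogenic progenitors and infiltrating leukocytes. Complement is a protein cascade that marks cells for clearance, with soluble and membrane-bound inhibitors that protect the host's own cells. Interferon-induced transmembrane proteins restrict virus entry, and prostaglandins are lipid mediators made from arachidonic acid by cyclooxygenases. Muscle and stromal cells make several of these factors themselves, beside immune cells.

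Library totals ran from 20200972 to 28175200 counts. Levels are given as CPM, counts scaled by library size after TMM normalization (a scaling between libraries) over the 10 libraries, and each pair of values is replicate 1 and then replicate 2. A level of 3 counts corresponded to 0.104 to 0.152 CPM. Over the members, the replicates of a group differed by a median of 0.148 (absolute log2 difference) for Control, 0.179 for HS1, 0.177 for HS3, 0.175 for HS7 and 0.258 for HS14. All 22 members passed the expression filter over the 10 libraries.

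Against Control, most members were lower in HS1, HS7 and HS14 and higher in HS3. Both HS1 libraries lay below both Control libraries for 18 of 22 members, where 31.0% of all genes tested did so, and above them for 1 member, where 30.6% did. In HS3 the count was reversed, with 3 members below Control (30.6% of all genes) and 16 above (29.8%). In HS7, 14 members were below (37.1%) and 4 above (36.5%), and in HS14, 17 were below (35.2%) and 4 above (35.8%). The median log2 fold change over the fitted members was -1.63 for HS1, 0.68 for HS3, -0.83 for HS7 and -1.35 for HS14, beside medians of 0.005, -0.008, 0.001 and -0.001 over all genes. Since the lists were made from these contrasts, nothing is read from these shares. Most listings were for a level below Control in HS1, HS7 or HS14, which by itself leaves HS3 or Control as the likelier highest group. The highest and lowest groups are therefore a description too. Listed for HS3 were 2 members, and the mean level was highest in HS3 for 13. For all 13, both HS3 libraries lay above the other 8 libraries, a pattern that 13.0% of 13691 genes showed for HS3. The same was true of HS14 for 3 members (9.97% of genes), of HS7 for 1 (14.3%), of HS1 for 1 (10.7%) and of Control for 1 (2.10%). The lowest mean fell in HS1 for 10 members, in HS14 for 6, in HS7 for 5 and in Control for 1. Both libraries lay below the other 8 in HS1 for 6 members (11.3% of genes), in HS14 for 4 (7.34%) and in HS7 for 4 (11.3%), and in Control (2.15%) or HS3 (10.8%) for 0.

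**Figure D1:**
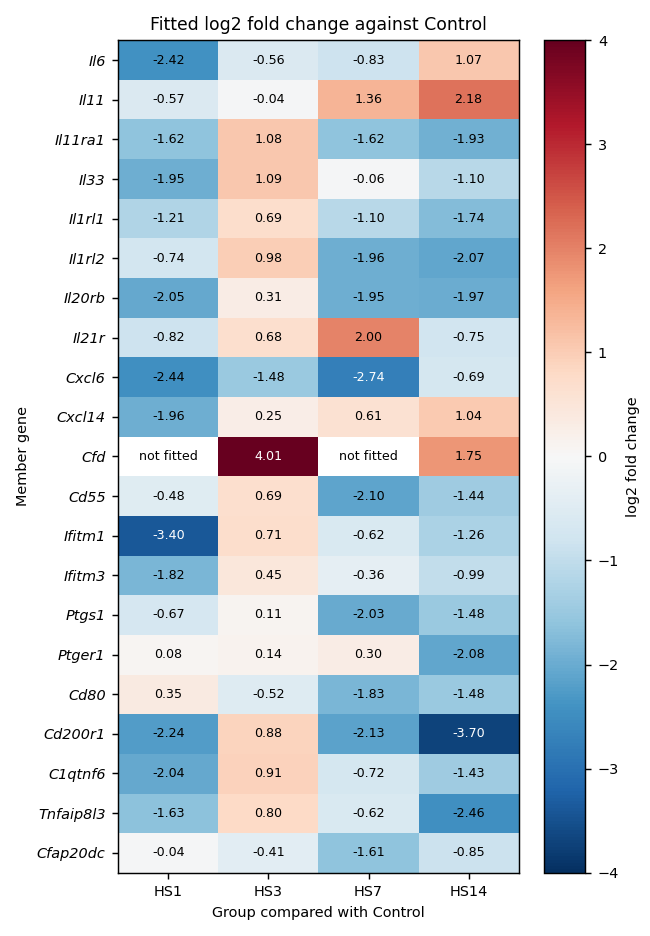
Log2 fold change of each of 21 members (rows, ordered by role) against Control in HS1, HS3, HS7 and HS14 (columns), with blue for lower and red for higher and the value printed in each cell. Most cells are blue in HS1, HS7 and HS14, with medians over all fitted members of -1.63, -0.83 and -1.35, and red in HS3, with a median of 0.68.

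At the threshold of the lists, the smallest changes of listed members in the edgeR fit used here were -1.61 for *Cfap20dc* in HS7 and -1.62 for *Il11ra1* in HS7. Just outside it stood *Cd80* and *Ptgs1* in HS14 and *Cxcl6* in HS3, each at -1.48. *Tnfaip8l3* in HS1 (-1.63 ± 0.58, SE) and *Cfd* in HS14 (1.75 ± 0.76) were beyond 1.5 in this fit and not listed.

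Between suspension groups, a test was made only for members that were listed for neither of the groups compared, which left 51 member comparisons, 50 of them with enough counts. The lists used these libraries too, but only in leaving the gene unlisted there. The test was the quasi-likelihood test of edgeR, adjusted by Benjamini-Hochberg over all genes tested, and a gene was called at an adjusted p under 0.01. For every other pair of groups the values are given with no test.

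The IL-6 family was represented by 2 ligands and 1 receptor chain. *Il6* (ENSRNOG00000010278) encodes interleukin-6, which contracting muscle and satellite cells release. It stood at 2.06 and 1.59 CPM in Control, 0.490 and 0.174 in HS1, 0.610 and 1.79 in HS3, then 1.18 and 0.868 in HS7, followed by 4.11 and 3.54 in HS14. The HS14 libraries were above all others and the HS1 libraries below all others, while the HS3 libraries overlapped with Control. Against Control the log2 fold change was -2.42 ± 0.51 (SE) in HS1, where *Il6* was listed, and 1.07 ± 0.27 in HS14, where it was not. The HS1 value rests on 12 and 4 counts. The ratio of summed counts to Control was 0.185, with a 95% interval of 0.102 to 0.317 that covers counting error only. Since most low counts in every library were even, the interval was also taken with counts halved, where it was 0.0756 to 0.396. *Il6* rose from HS3 to HS14 by 1.60 ± 0.36 (edgeR adjusted p = 0.000958) and from HS7 to HS14 by 1.91 ± 0.32 (edgeR adjusted p = 0.000182). HS7 and HS3 differed by -0.28 ± 0.52 (edgeR adjusted p = 0.718), which was not detectable at this depth.

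*Il11* (ENSRNOG00000017386) encodes interleukin-11, a relative of IL-6 that fibroblasts make in response to TGF-beta. Its level was 1.27 and 0.986 CPM in Control, 0.899 and 0.610 in HS1, 0.813 and 1.35 in HS3, then 3.57 and 2.21 in HS7, followed by 5.81 and 4.42 in HS14. The HS7 and HS14 libraries were above every library of the other 3 groups. *Il11* was listed for HS14 only, with 2.18 ± 0.28 against Control. From HS1 to HS7 it rose by 1.91 ± 0.40 (edgeR adjusted p = 0.00122), though without HS1 replicate 2 the value was 1.66 and without HS7 replicate 1 it was 1.53, and neither passed the threshold. From HS3 to HS7 the difference was 1.37 ± 0.39 and missed the threshold (edgeR adjusted p = 0.0148). It passed with no expression filter, at 1.371, and with all 10 libraries in 1 fit, at 1.385. Without HS7 replicate 2 the difference was 1.67.

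Its receptor moved otherwise. *Il11ra1* (ENSRNOG00000015068), the chain that binds IL-11 and then pairs with the shared gp130 subunit, stood at 34.8 and 35.8 CPM in Control, 10.7 and 12.2 in HS1, 62.4 and 86.7 in HS3, then 12.2 and 10.7 in HS7, followed by 8.78 and 9.89 in HS14. Both HS3 libraries were the highest of the 10, and no library of HS1, HS7 or HS14 reached Control. The change against Control was -1.63 ± 0.11 for HS1, 1.08 ± 0.13 for HS3, -1.62 ± 0.11 for HS7 and -1.93 ± 0.11 for HS14, and HS3 was the one group where it was not listed. In HS14 the ligand *Il11* was thus at its highest mean and the receptor at its lowest.

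The promoters of both ligands hold a motif of a factor that inflammatory signals activate. The windows shown are the 250 bases before the RefSeq start in assembly GRCr8, with matches in capitals: the NF-kappaB consensus at 68 to 59 bases before the start of *Il6*, and TGANTCA, the AP-1 site with N for any base, at 142 to 136 bases before that of *Il11*. The *Il6* window is chr4:5894576-5894825 on the minus strand and the *Il11* window chr1:78098372-78098621 on the plus strand.
Il6: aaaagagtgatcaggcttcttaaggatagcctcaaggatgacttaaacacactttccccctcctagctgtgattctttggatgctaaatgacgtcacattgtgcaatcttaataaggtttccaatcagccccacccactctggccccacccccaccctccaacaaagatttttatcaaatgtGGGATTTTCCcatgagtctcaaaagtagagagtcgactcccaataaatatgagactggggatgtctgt
Il11: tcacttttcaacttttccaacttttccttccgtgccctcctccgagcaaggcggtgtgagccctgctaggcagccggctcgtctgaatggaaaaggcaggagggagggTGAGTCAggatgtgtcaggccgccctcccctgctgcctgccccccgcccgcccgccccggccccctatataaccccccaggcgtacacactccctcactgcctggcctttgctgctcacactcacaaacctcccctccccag
Both strands were searched. Of 33469 RefSeq promoter windows of this length, 4.24% held the NF-kappaB consensus and 6.34% the AP-1 letters. Among the 18 members with a window, 3 held the former (*Cxcl6*, *Ifitm3* and *Il6*) and 4 the latter (*C1qtnf6*, *Cxcl14*, *Ifitm3* and *Il11*). A match describes the letters of the window and is neither a site nor a cause. *Cd200r1*, *Ifitm1* and *Il11ra1* had no window.

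The IL-1 family gave 1 ligand and 2 receptor chains. *Il33* (ENSRNOG00000016456) encodes interleukin-33, an alarmin kept in the nucleus of stromal cells and released on damage. It stood at 26.1 and 22.6 CPM in Control, 6.29 and 6.31 in HS1, 52.0 and 52.0 in HS3, then 27.3 and 19.3 in HS7, followed by 12.8 and 9.89 in HS14. HS3 was above and HS1 below all other libraries, and the HS7 libraries lay on either side of Control. Against Control the log2 fold change was -1.95 ± 0.13 in HS1, the list that held it, and elsewhere 1.09 ± 0.10 (HS3), -0.06 ± 0.15 (HS7) and -1.10 ± 0.12 (HS14). *Il33* fell by 1.18 ± 0.14 from HS3 to HS7 (edgeR adjusted p = 3.72e-05) and by 2.21 ± 0.13 from HS3 to HS14 (edgeR adjusted p = 1.57e-13). It fell by 1.02 ± 0.18 from HS7 to HS14 (edgeR adjusted p = 0.00136). The HS3 to HS7 call was lost without HS3 replicate 2, where the log2 fold change was -1.18, and the HS7 to HS14 call without HS14 replicate 2, where it was -0.85.

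*Il1rl1* (ENSRNOG00000014835) encodes ST2, the receptor of IL-33, and gives rise to a membrane-bound and a soluble decoy form that counts per gene do not separate. Its level was 818 and 786 CPM in Control, 339 and 355 in HS1, 1321 and 1272 in HS3, then 417 and 327 in HS7, followed by 239.8 and 243 in HS14. The order of the groups was the same as for *Il33* at the upper end, with HS3 above Control, while the lowest group was HS14. Its one listing was for HS14 (-1.74 ± 0.05 against Control). *Il1rl1* rose by 1.91 ± 0.08 from HS1 to HS3 (edgeR adjusted p = 3.80e-18) and fell by 1.82 ± 0.11 from HS3 to HS7 (edgeR adjusted p = 5.77e-08). HS7 and HS1 differed by 0.09 ± 0.10 (edgeR adjusted p = 0.517), and their libraries overlapped, though without HS7 replicate 2 the difference was 0.25 and passed the threshold.

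*Il1rl2* (ENSRNOG00000014683) encodes the receptor of the IL-36 cytokines and lies beside *Il1rl1* in a cluster with *Il1r1* and *Il18r1* in assembly GRCr8. It stood at 19.6 and 19.8 CPM in Control, 11.9 and 11.6 in HS1, 37.6 and 40.4 in HS3, then 4.99 and 5.09 in HS7, followed by 3.80 and 5.73 in HS14. HS3 was again the highest group, and HS7 and HS14 overlapped as the lowest. It was listed for HS7 (-1.96 ± 0.14) and HS14 (-2.07 ± 0.15), and rose by 1.73 ± 0.13 from HS1 to HS3 (edgeR adjusted p = 8.49e-13). The antagonist *Il1rn*, which blocks the IL-1 receptor and was left out by the rule, had the same highest group, with 39.9 CPM on average in Control, 115 in HS3, 2.22 in HS1 and 2.79 in HS14, and was listed for every time point. *Casp1*, the protease that matures IL-1 beta, was called lower in HS7 and in HS14 than in HS3 (-1.57 ± 0.28, edgeR adjusted p = 0.000651, and -1.88 ± 0.29, edgeR adjusted p = 8.35e-06).

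Of the remaining cytokine receptors, *Il20rb* (ENSRNOG00000023214) encodes a chain shared by the receptors of IL-19, IL-20 and IL-24. It had 5.42 and 4.06 CPM in Control, 1.06 and 1.22 in HS1, 6.35 and 5.45 in HS3, then 1.18 and 1.26 in HS7, followed by 0.899 and 1.56 in HS14. It was listed for HS1, HS7 and HS14, with -2.05 ± 0.29, -1.95 ± 0.30 and -1.97 ± 0.29 against Control, and the libraries of these 3 groups overlapped with each other. *Il21r* (ENSRNOG00000015773), the receptor of the T cell cytokine IL-21, had another course. It stood at 0.791 and 1.14 CPM in Control, 0.736 and 0.348 in HS1, 2.13 and 1.03 in HS3, then 4.01 and 3.71 in HS7, followed by 0.484 and 0.674 in HS14. The HS7 libraries were above all others, at 2.0 ± 0.33 against Control. Outside HS7 the level was at most 2.13 CPM, and none of the 3 comparisons open to a test passed the threshold, the nearest being HS3 against HS14 (-1.46 ± 0.49 in HS14, edgeR adjusted p = 0.0192), which passed without HS3 replicate 2, at -1.92.

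**Figure D2:**
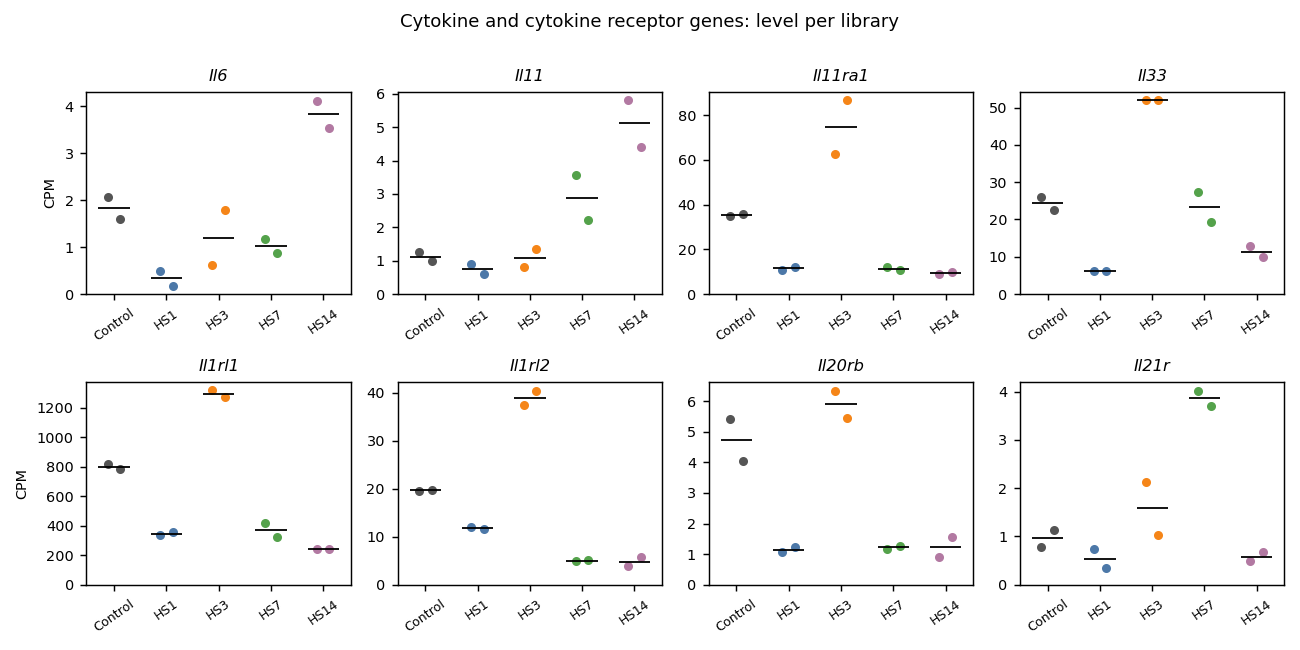
Level in CPM (vertical axis of each panel, linear from 0) of *Il6*, *Il11*, *Il11ra1*, *Il33*, *Il1rl1*, *Il1rl2*, *Il20rb* and *Il21r* in the 2 libraries (points) and their mean (line) of Control, HS1, HS3, HS7 and HS14. *Il11* peaks in HS14 at 5.81 and 4.42 CPM, *Il21r* in HS7 at 4.01 and 3.71, and *Il33* in HS3 at 52.0 in both libraries.

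Both chemokines were lowest or near lowest in HS1. *Cxcl6* (ENSRNOG00000002843) encodes a chemokine that attracts neutrophils, and *Cxcl14* (ENSRNOG00000011984) one that attracts monocytes and dendritic cells. *Cxcl6* stood at 7.27 and 7.02 CPM in Control, 1.23 and 1.39 in HS1, 3.15 and 2.07 in HS3, then 1.30 and 0.829 in HS7, followed by 5.46 and 3.33 in HS14. Every suspended library was below both Control libraries, with -2.45 ± 0.24 in HS1 and -2.74 ± 0.28 in HS7, where it was listed. HS14 was above HS3 by 0.76 ± 0.29, which missed the threshold (edgeR adjusted p = 0.0375) but passed it without HS3 replicate 1, at 1.08, or HS14 replicate 2, at 1.06. *Cxcl14* stood at 2.49 and 2.43 CPM in Control, 0.981 and 0.261 in HS1, 3.25 and 2.66 in HS3, then 3.89 and 3.59 in HS7, followed by 5.36 and 4.80 in HS14. Of the 4 suspended groups, HS1 alone had both libraries below Control, at -1.96 ± 0.44, and HS14 was above all others, at 1.04 ± 0.23. The differences among HS3, HS7 and HS14 did not pass the threshold, with 0.77 ± 0.24 from HS3 to HS14 (edgeR adjusted p = 0.0127). The latter passed with no expression filter, at 0.767, and was 0.91 without HS3 replicate 1.

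The windows of both chemokines are shown for their matches: the NF-kappaB consensus at 88 to 79 bases before the start of *Cxcl6* (chr14:17596418-17596667, GRCr8, minus strand) and TGANTCA at 99 to 93 bases before that of *Cxcl14* (chr17:8322900-8323149, GRCr8, plus strand).
Cxcl6: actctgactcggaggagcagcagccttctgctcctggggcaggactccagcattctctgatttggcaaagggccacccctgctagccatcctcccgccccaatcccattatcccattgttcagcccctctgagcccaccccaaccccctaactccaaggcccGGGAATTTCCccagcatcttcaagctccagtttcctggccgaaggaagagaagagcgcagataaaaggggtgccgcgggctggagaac
Cxcl14: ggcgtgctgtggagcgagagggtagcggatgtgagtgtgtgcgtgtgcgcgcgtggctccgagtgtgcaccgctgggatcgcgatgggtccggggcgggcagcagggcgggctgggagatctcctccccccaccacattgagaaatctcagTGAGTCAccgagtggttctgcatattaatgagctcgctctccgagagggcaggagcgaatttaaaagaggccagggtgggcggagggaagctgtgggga
Like the windows of *Il6* and *Il11*, they come from RefSeq. The members with the same motif did not share 1 course over time: among the 3 with the NF-kappaB consensus, the highest mean fell in Control for *Cxcl6*, in HS14 for *Il6* and in HS3 for *Ifitm3*.

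Among complement genes, *Cfd* was on the HS3 list, above Control, and *Cd55* on the HS7 list, below it. *Cfd* (ENSRNOG00000033564) encodes factor D or adipsin, the protease that starts the alternative pathway and that adipocytes secrete. It had 6 and 2 counts in Control, 6 and 2 in HS1, 70 and 42 in HS3, then 8 and 6 in HS7, followed by 12 and 16 in HS14, or 3.56 and 1.67 CPM in HS3 against 0.237 and 0.0758 in Control. Both HS3 libraries were above all others, and the Control and HS1 libraries were near the level of 3 counts. The ratio of summed counts between HS3 and Control was 16.1 (95% interval 7.91 to 38.3, counting error only). With counts halved the interval was 5.96 to 61.25. HS14 against HS1 (1.62 ± 0.74, edgeR adjusted p = 0.0947) and against HS7 (0.94 ± 0.63, edgeR adjusted p = 0.28) did not pass the threshold.

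*Cd55* (ENSRNOG00000003927) encodes decay-accelerating factor, which removes complement convertases from the cell surface. It had 12.9 and 11.5 CPM in Control, 9.93 and 7.49 in HS1, 20.2 and 19.1 in HS3, then 3.04 and 2.61 in HS7, followed by 4.60 and 4.42 in HS14. HS3 was above and HS7, where it was listed (-2.10 ± 0.19), below all other libraries. *Cd55* rose by 1.18 ± 0.16 from HS1 to HS3 (edgeR adjusted p = 3.25e-07). From HS3 to HS14 it fell by 2.14 ± 0.16 (edgeR adjusted p = 4.46e-11), and in HS14 it was also lower than in HS1, by -0.97 ± 0.19 (edgeR adjusted p = 0.000654). The other complement genes with a symbol were *Masp1*, a lectin pathway protease, and *C5ar2*, a receptor for C5a. *Masp1* was listed for HS1, HS7 and HS14 and left no comparison for a test, with 11.0 CPM on average in Control, 0.863 in HS1 and 23.6 in HS3. *C5ar2* was called lower in HS7 than in HS3 (-1.55 ± 0.33, edgeR adjusted p = 0.00235) and in HS14 than in HS3 (-1.50 ± 0.32, edgeR adjusted p = 0.000413).

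The interferon-induced members were *Ifitm1* (ENSRNOG00000004273) and *Ifitm3* (ENSRNOG00000015078), neighbours in a cluster of paralogs with *Ifitm2*, *Ifitm5* and *Ifitm6*. Since the counting of reads that fit several paralogs was not given in the sources used here, their separate levels are uncertain. *Ifitm3* stood at 109.9 and 119 CPM in Control, 32.7 and 32.2 in HS1, 148 and 167 in HS3, then 94.0 and 83.2 in HS7, followed by 62.2 and 53.1 in HS14. *Ifitm1* stood at 8.62 and 9.75 CPM in Control, 1.14 and 0.566 in HS1, 14.0 and 16.0 in HS3, then 6.12 and 5.76 in HS7, followed by 4.49 and 3.12 in HS14. The groups had the same order for both genes, HS3 above Control, then HS7, HS14 and HS1, with no overlap between any of the groups.

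Both were listed for HS1 only, with -3.41 ± 0.27 for *Ifitm1* and -1.82 ± 0.07 for *Ifitm3*. *Ifitm3* fell by 0.85 ± 0.09 from HS3 to HS7 (edgeR adjusted p = 7.62e-06), by 1.47 ± 0.09 from HS3 to HS14 (edgeR adjusted p = 1.70e-12) and by 0.61 ± 0.09 from HS7 to HS14 (edgeR adjusted p = 5.42e-05). *Ifitm1* fell by 1.36 ± 0.17 from HS3 to HS7 (edgeR adjusted p = 2.78e-05). From HS3 to HS14 its log2 fold change was -1.99 ± 0.19 (edgeR adjusted p = 4.21e-09), while the step from HS7 to HS14 missed the threshold (-0.63 ± 0.23, edgeR adjusted p = 0.0463).

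The interferon-response genes with a symbol that were no members took several courses. *Apol9a* was called lower in HS7 (-1.77 ± 0.30, edgeR adjusted p = 0.000421) and in HS14 (-1.38 ± 0.28, edgeR adjusted p = 0.00031) than in HS3. *Usp18*, which removes ISG15 from proteins, averaged 9.02 CPM in Control and 10.3 in HS1, with 7.45 in HS3 but 1.72 in HS7 and 2.32 in HS14, and *Cmpk2*, a mitochondrial nucleotide kinase, was lowest in HS3 at 0.482 CPM. *Gbp4*, a guanylate-binding protein, was highest in HS7 at 5.98 CPM on average and at 1.62 in Control.

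The *Ifitm3* window is shown because it held 4 of the motifs searched. It is chr1:205541759-205542008 in GRCr8 on the minus strand, from RefSeq. In order along it, capitals mark the NF-kappaB consensus (162 to 153 bases before the start), TGANTCA (151 to 145), the core of the interferon-stimulated response element, which is GAAA and again GAAA with 2 bases between (44 to 35), and TTCNNNGAA, the gamma-activated site (33 to 25).
Ifitm3: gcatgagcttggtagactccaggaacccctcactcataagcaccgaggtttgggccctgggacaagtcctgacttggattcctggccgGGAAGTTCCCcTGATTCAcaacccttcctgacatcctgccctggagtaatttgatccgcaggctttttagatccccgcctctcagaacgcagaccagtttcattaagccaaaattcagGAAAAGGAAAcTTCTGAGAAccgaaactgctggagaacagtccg
The response element core was found in 3.41% of all windows and the gamma-activated site in 7.67%, and *Cd80* was the only other member with either. The letters of the TATA box (TATAAA, 12.9% of all windows) were found for *Il33* and *Il1rl1*. They lay 29 to 24 bases before the *Il33* start whose window is chr1:237134696-237134945. The window of the other RefSeq start of *Il33* did not hold them. For *Il1rl1* they lay on the opposite strand, 246 to 241 bases before the start.

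Of the prostaglandin members, *Ptgs1* was below Control in HS1, HS7 and HS14, and *Ptger1* in HS14. *Ptgs1* (ENSRNOG00000007415) encodes cyclooxygenase-1, the constitutive enzyme of prostaglandin synthesis. It stood at 469 CPM in both Control libraries, 292 and 298 in HS1, 481 and 537 in HS3, then 108 and 121 in HS7, followed by 177 and 159.6 in HS14. HS7 was below all others and HS3 above all others. Its listing was for HS7 (-2.03 ± 0.06). *Ptgs1* rose by 0.79 ± 0.08 from HS1 to HS3 (edgeR adjusted p = 2.82e-09) and fell by 1.62 ± 0.08 from HS3 to HS14 (edgeR adjusted p = 1.32e-14). HS14 was lower than HS1 by -0.83 ± 0.06 (edgeR adjusted p = 5.73e-09). *Ptger1* (ENSRNOG00000004094), a receptor of prostaglandin E2, stood at 1.27 and 1.37 CPM in Control, 1.55 and 1.22 in HS1, 1.52 and 1.39 in HS3, then 1.91 and 1.34 in HS7, followed by 0.138 and 0.505 in HS14. Only the HS14 libraries stood apart, with 4 and 12 counts. The ratio of summed counts to Control was 0.231 (95% interval 0.125 to 0.402, counting error only). With counts halved the interval was 0.0923 to 0.508. Among HS1, HS3 and HS7, *Ptger1* differed by 0.21 or less on the log2 scale, with SEs of 0.39 to 0.41 and edgeR adjusted p-values of 0.688 to 0.907.

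*Pla2g4a*, the phospholipase that frees arachidonic acid for the cyclooxygenases, was called lower in HS7 (-1.30 ± 0.13, edgeR adjusted p = 2.83e-06) and HS14 (-1.86 ± 0.15, edgeR adjusted p = 2.00e-10) than in HS3. *Ptges*, which makes prostaglandin E2, was called higher in HS3 than in HS1 (1.16 ± 0.15, edgeR adjusted p = 1.09e-07) and lower in HS14 than in HS3 (-0.68 ± 0.13, edgeR adjusted p = 0.000119). The prostacyclin receptor *Ptgir* was on 3 lists and had 33.1 CPM on average in Control, 7.47 in HS1 and 53.7 in HS3.

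The immune checkpoint members encode surface proteins. *Cd80* (ENSRNOG00000001527) is the B7 ligand of CD28 and CTLA-4 on T cells. It had 16.1 and 14.3 CPM in Control, 20.1 and 18.7 in HS1, 11.2 and 10.1 in HS3, then 4.01 and 4.50 in HS7, followed by 5.05 and 5.89 in HS14. HS1 was above all other libraries and HS3 below Control, so that *Cd80* and *Cxcl6* were the members that HS1 or Control held highest with no overlap. It was listed for HS7 (-1.83 ± 0.16). *Cd80* fell by 0.86 ± 0.15 from HS1 to HS3 (edgeR adjusted p = 1.59e-05), by 1.85 ± 0.15 from HS1 to HS14 (edgeR adjusted p = 1.75e-08) and by 0.99 ± 0.18 from HS3 to HS14 (edgeR adjusted p = 0.000102).

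*Cd200r1* (ENSRNOG00000039048), an inhibitory receptor of myeloid cells for CD200, had 4.03 and 1.97 CPM in Control, 0.817 and 0.436 in HS1, 6.4 and 4.69 in HS3, then 0.811 and 0.553 in HS7, followed by 0.277 and 0.168 in HS14. HS3 was above all others and HS14 below all others. The mean levels spanned 24.9 times between these groups, the widest ratio of any member. Its neighbour *Cd200r1l* is a related gene, so reads could be shared between them in counting. *Cd200r1* was listed for HS1, HS7 and HS14. In HS14 the 12 counts against 154 in Control gave a ratio of 0.0764 (95% interval 0.0386 to 0.137, counting error only). With counts halved the interval was 0.0272 to 0.174. *Vsir*, another inhibitory receptor, was called lower in HS14 than in HS3 (-1.70 ± 0.25, edgeR adjusted p = 4.87e-06).

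For 3 members the symbol matched the rule but the protein belongs elsewhere. *C1qtnf6* (ENSRNOG00000007300) encodes a secreted relative of adiponectin and not a subunit of complement C1q. It stood at 34.9 and 38.2 CPM in Control, 8.34 and 9.49 in HS1, 60.1 and 77.4 in HS3, then 21.8 and 22.6 in HS7, followed by 14.8 and 12.3 in HS14, with no overlap between groups, and was listed for HS1 (-2.04 ± 0.11). *C1qtnf6* fell by 1.65 ± 0.12 from HS3 to HS7 (edgeR adjusted p = 2.82e-07) and by 2.36 ± 0.13 from HS3 to HS14 (edgeR adjusted p = 3.41e-12). It fell by 0.70 ± 0.12 from HS7 to HS14 (edgeR adjusted p = 0.000277), a call lost without HS14 replicate 2 at -0.57.

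*Tnfaip8l3* (ENSRNOG00000024230) encodes a phosphoinositide transfer protein. It had 1.42 and 0.683 CPM in Control, 0.409 and 0.261 in HS1, 1.93 and 1.75 in HS3, then 0.730 and 0.632 in HS7, followed by 0.277 and 0.0842 in HS14. HS3 was above all others, and HS14, where it was listed, overlapped with HS1 at 8 and 2 counts. *Tnfaip8l3* rose by 2.43 ± 0.52 from HS1 to HS3 (edgeR adjusted p = 0.000339). *Cfap20dc* (ENSRNOG00000007206), named after a protein of cilia and flagella, had the narrowest range, 3.07 times between the highest and the lowest mean. It had 2.33 and 2.09 CPM in Control and 0.730 and 0.711 in HS7, the lowest group, where it was listed (-1.61 ± 0.39), and none of its 3 tests passed the threshold.

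**Figure D3:**
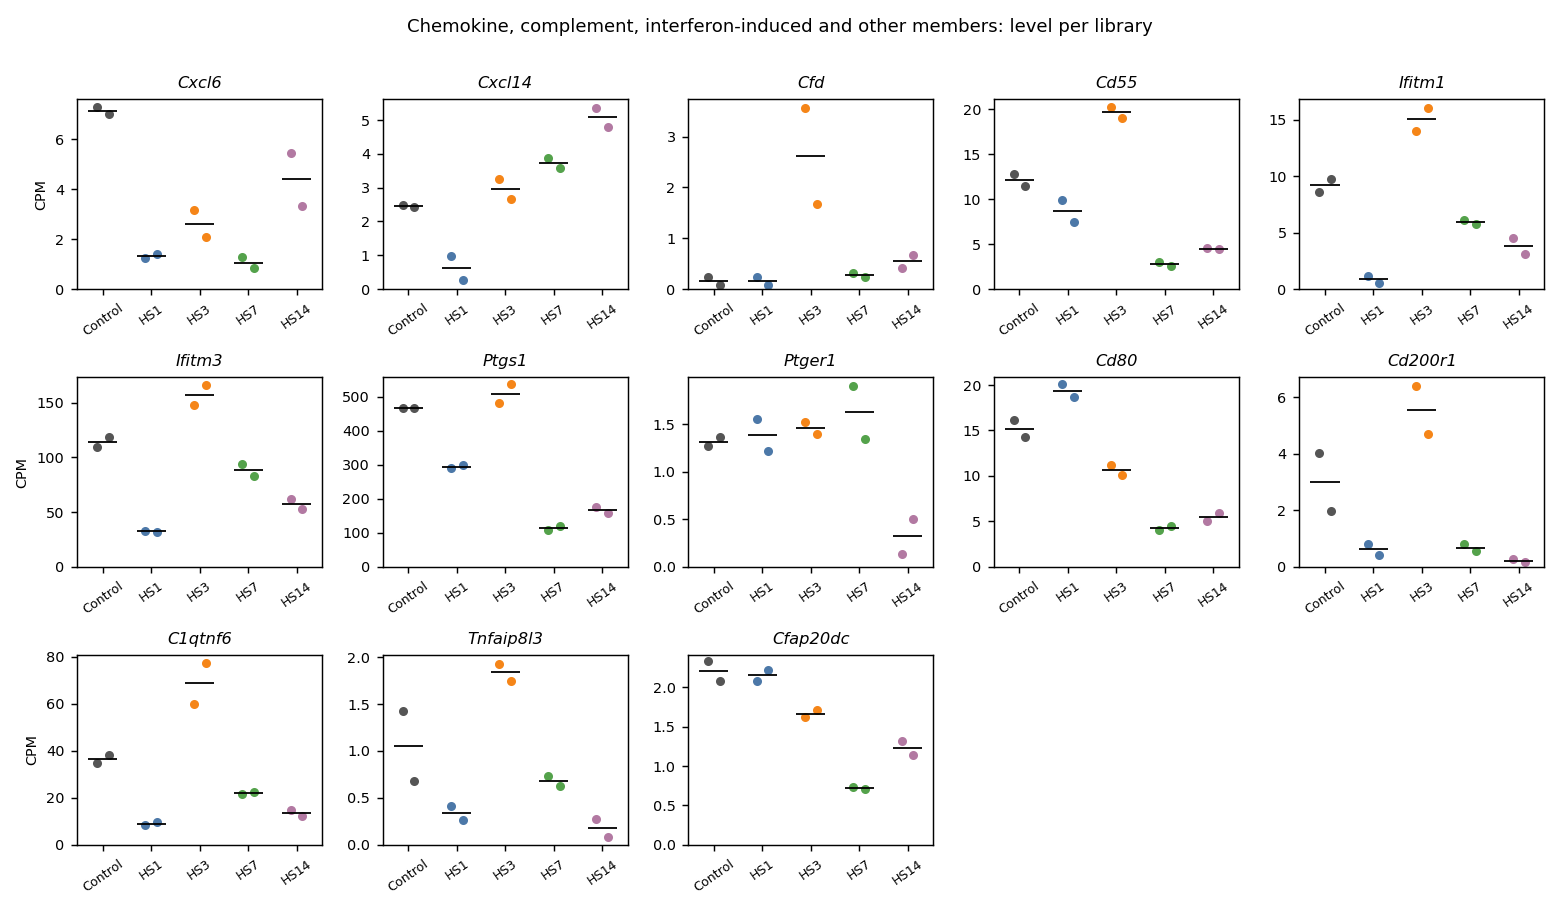
Level in CPM (vertical axis of each panel, linear from 0) of 13 members that are no interleukins or interleukin receptors, in the 2 libraries (points) and their mean (line) of Control, HS1, HS3, HS7 and HS14. *Ifitm3* is lowest in HS1 at 32.7 and 32.2 CPM and highest in HS3 at 148 and 167, while *Ptgs1* is lowest in HS7 at 108 and 121.

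Over all 50 tests, 27 were called, 8 of them higher and 19 lower in the later group. From HS1 to HS3, 6 of 10 members were called, 5 higher (*Cd55*, *Il1rl1*, *Il1rl2*, *Ptgs1* and *Tnfaip8l3*) and 1 lower (*Cd80*), where 30.5% of all genes were called, 17.2% higher and 13.3% lower. From HS1 to HS7, 1 of 4 was called, with 34.1% of all genes. From HS1 to HS14, 3 of 7 were called, all lower (*Cd55*, *Cd80* and *Ptgs1*), with 24.8% of all genes called and 12.8% lower.

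From HS3 to HS7, 5 of 10 members were called, all lower, beside 23.0% of all genes and 12.9% lower. These were *C1qtnf6*, *Ifitm1*, *Ifitm3*, *Il1rl1* and *Il33*. From HS3 to HS14, 8 of 12 were called, 7 lower and *Il6* higher, beside 31.9% of all genes, 18.1% lower and 13.8% higher. From HS7 to HS14, 4 of 7 were called, *C1qtnf6*, *Ifitm3* and *Il33* lower and *Il6* higher, beside 23.5% of all genes. The share of members called was above that of all genes in these comparisons except from HS1 to HS7, but the members are genes chosen for a change at another time point.

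**Figure D4:**
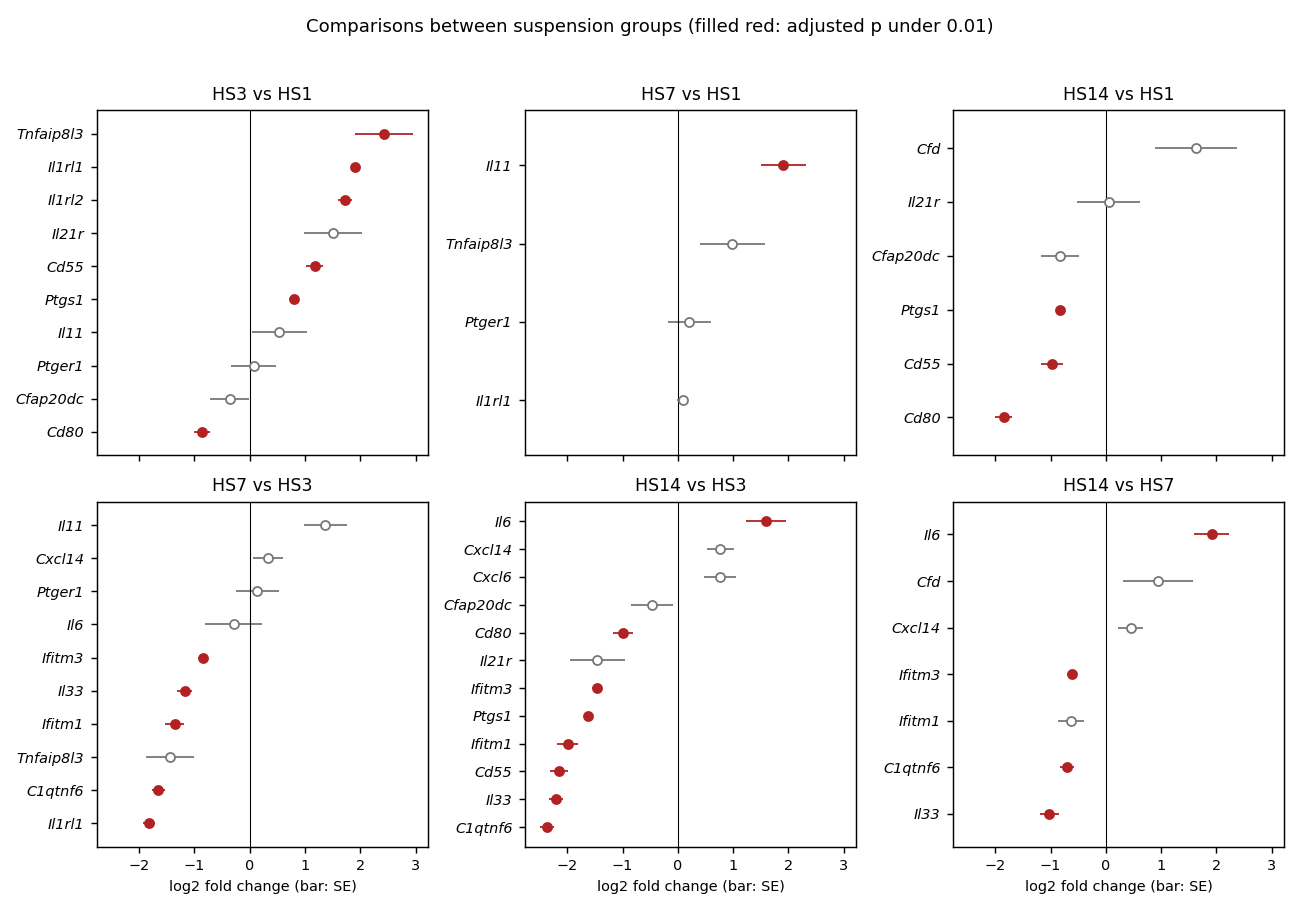
Log2 fold change with its SE (horizontal axis) of the named members tested between 2 suspension groups, in 1 panel per comparison, with filled points at an edgeR adjusted p under 0.01. In the panel of HS14 against HS3, 7 of the 8 filled points lie below 0 and *Il6* lies above it at 1.60.

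Markers of other cell types took several courses over the groups. The summed level of the 10 fibro-adipogenic progenitor and fibroblast markers with a symbol was 7508 and 7988 CPM in Control, 2482 and 2485 in HS1, 15940 and 19990 in HS3, then 8904 and 8788 in HS7, followed by 3096 and 2893 in HS14. Most of this sum was the collagen gene *Col1a1*, at 6771 CPM on average in Control and 16120 in HS3. Both HS3 libraries were above Control for 9 of these 10 markers, and both HS1 libraries were below it for 9. In HS7, 5 were above and 5 below, and in HS14, 2 were above and 8 below. The exception in HS3 was *Dcn*, with a mean of 77.55 CPM against 162.5 for Control. *Dcn* was also below Control after 1 day of HS, at 37.6 CPM, but above it after 7 days (270.4) and 14 days (446.6). *Lum* was the other marker above Control in HS14, at 9.498 CPM on average against 6.934. A marker has a symbol only if it was on the study's lists, so these markers and those that follow were also chosen by change. Of all genes tested, 29.8% to 37.1% lay above Control, or below it, in a given group. The marker counts are therefore a description only. *Pdgfra*, which defines fibro-adipogenic progenitors, stood at 147 and 149 CPM in Control, 30.4 and 31.5 in HS1, 304 and 297 in HS3, then 62.4 and 62.7 in HS7, followed by 59.0 and 57.3 in HS14. HS3 was the highest group for this sum and for *Pdgfra*, as for 13 members, while *Dcn* was highest in HS14. The part of these markers in the members' values was not tested. In bulk samples, fewer cells of a type and less RNA per cell cannot be told apart.

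The markers of leukocytes, the cells that the members' names call to mind, went both ways. Of 21 such markers 7 had a symbol, and *Ptprc*, *Cd68* and *Csf1r* were not among them. Their summed level was 69.9 and 67.2 CPM in Control, 106 in both HS1 libraries, 29.8 and 39.9 in HS3, then 53.5 and 56.9 in HS7, followed by 80.0 and 74.9 in HS14. Most of it was *Spn*, a sialoglycoprotein of leukocytes, at 97.9 and 97.1 CPM in HS1 and 12.6 and 15.0 in HS3. The sum therefore followed this gene and was lowest in HS3, while 4 of the 7 markers had both HS3 libraries above Control and 2 had both below. Those above were *Lyz2* (1.20 CPM on average in Control and 5.89 in HS3), *Lcp1* (0.738 and 2.10), *Myo1g* (3.50 and 4.96) and *Arhgdib* (6.08 and 7.01). Those below were *Spn* and *Mcpt10* (0.929 and 0.382). In HS1, *Myo1g* and *Arhgdib* were below Control in both libraries, as most members were. The 4 markers *Lyz2*, *Spn*, *Fcgr2a* and *Mcpt10* were above it in HS1. In HS7, 2 markers were above and 4 below, and in HS14, 3 were above and 3 below. The part of the leukocyte markers in the members' values was not tested.

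The adipocyte sum (4 of 7 with a symbol) was 73.3 and 68.8 CPM in Control, 60.7 and 54.8 in HS1, 118 and 117 in HS3, then 270.3 and 206 in HS7, followed by 111 and 103 in HS14. All 4 markers were above Control in HS3 and 3 were below it in HS1. In HS7 and in HS14 1 marker, the lipase gene *Lpl*, was above Control and 2 were below it, so that the sum there was mostly *Lpl*, at 265 and 202 CPM in HS7. *Adipoq* did not exceed 2.24 CPM in any library.

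The smooth muscle and pericyte sum (4 of 8) was 186 and 178 CPM in Control, 72.3 and 71.4 in HS1, 369 and 406 in HS3, then 125 and 89.0 in HS7, followed by 106 and 100.2 in HS14. Most of this sum was *Pdgfrb*, at 167.5 CPM on average in Control, 57.5 in HS1 and 365 in HS3. Both libraries were above Control for 3 of these 4 markers in HS3 and below it for 3 in HS7 and in HS14. In HS1, 1 marker was above Control and 1, *Pdgfrb*, below it. The marker above Control in HS7 and HS14 was *Rgs5*, at 1.21 CPM on average in HS14. The endothelial sum (9 of 11) was 10.2 and 13.5 CPM in Control, 9.97 and 10.2 in HS1, 14.3 and 14.2 in HS3, then 16.6 and 12.8 in HS7, followed by 24.1 and 21.9 in HS14. Of the 9 endothelial markers, 7 were above Control in HS7 and 7 in HS14, with *Cdh5*, the junction cadherin of endothelium, at 0.194 CPM on average in Control, 2.61 in HS7 and 4.79 in HS14. None of the 6 myoblast markers had a symbol, because only genes on the study's lists are named, so the labelled cell type could not be checked with them. The 13 markers of differentiating myocytes summed to 1718 and 1791 CPM in Control, 1293 and 1170 in HS1, 3873 and 4072 in HS3, then 11060 and 6500 in HS7, followed by 1273 and 1197 in HS14, and the HS7 libraries stood apart from each other. All 13 were above Control in HS3 and in HS7, while 11 were below it in HS1 and 12 in HS14, groups where most members were below Control too. In HS7 the members went otherwise, with 14 of 22 below Control and 4 above it. *Il21r* and *Il11*, both above Control in HS7, had the higher level in HS7 replicate 1 as well, as did 17 of the 22 members. Replicate 1 was also the higher for 14 members in Control, 14 in HS1, 13 in HS3 and 14 in HS14. The part of all these markers in the members' values was not tested.

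**Figure D5:**
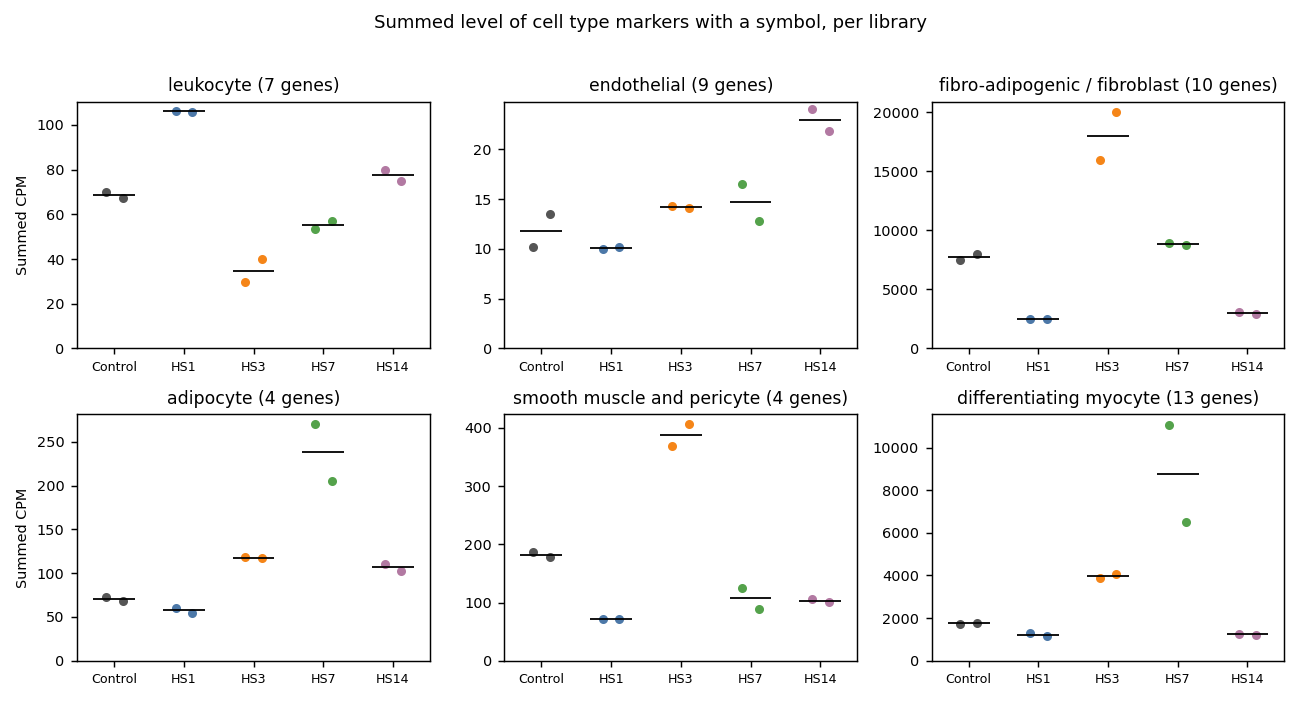
Summed level in CPM (vertical axis of each panel, linear from 0) of the markers of each cell type that have a symbol, in the 2 libraries (points) and their mean (line) of Control, HS1, HS3, HS7 and HS14. The fibro-adipogenic and fibroblast sum, mostly *Col1a1*, peaks in HS3 at 15940 and 19990 CPM, where the leukocyte sum, mostly *Spn*, is lowest at 29.8 and 39.9.

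Besides the members, 21 genes of the same pathways had a symbol, of 177 genes on 8 lists that also hold 19 of the members. These 21 genes have a symbol only because they were on the study's lists, so they too were chosen by change. Of all genes tested, 23.0% to 34.1% were called between 2 suspension groups, in either direction. The counts of calls that follow are therefore a description only. The 21 genes left 35 comparisons for a test, of which 3 were called higher in the later group and 15 lower. Those called higher included *Ptges* from HS1 to HS3 and the lymphocyte chemokine *Xcl1* from HS1 to HS14 (3.35 ± 0.63, edgeR adjusted p = 0.000386), which had 4 and 2 counts in HS1 and 46 and 26 in HS14. Among chemokine receptors, *Ackr4*, which scavenges CCL19 and CCL21, was called lower in HS7 than in HS3 (-2.38 ± 0.19, edgeR adjusted p = 4.53e-07), and *Cmklr1*, the chemerin receptor, lower in HS14 than in HS7 (-1.40 ± 0.23, edgeR adjusted p = 0.000165). The neutrophil chemokine *Cxcl3*, the relative of *Cxcl6* that the rule left out, averaged 15.7 CPM in Control, 22.3 in HS1 and 16.8 in HS14, but 2.76 in HS3 and 4.28 in HS7. It was therefore low in HS3, where most members were highest, and was called lower in HS14 than in HS1 (-0.43 ± 0.11, edgeR adjusted p = 0.00505).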

How the data were processed

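Myoblast RNA was sequenced in 10 libraries of 5 groups. The authors deposited raw counts per Ensembl gene, with no normalization. The submitters' processing notes name STAR 2.7, featureCounts 1.6.4, FastQC 0.11.9 and DESeq2 with the build Rnor_6.0, whereas the study's methods name mRatBN7.2, and the conflict was not settled. The handling of strand, read mates and multiply mapped reads was not given in the sources used here. Among counts of 1 to 20, 69.4% to 72.0% were even, and halved counts were one alternative.

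Counts were fitted with edgeR 4.0.16 (limma 3.58.1, R 4.3.3) on the 4 libraries of each comparison: filterByExpr, TMM, robust quasi-likelihood fit and Benjamini-Hochberg adjustment over all genes tested, with an adjusted p under 0.01 for a call. Depth was 20200972 to 28175200 counts, and 3 counts was the floor. Symbols came from the study's lists (817 identifiers, 770 with a symbol), whose fold changes and p-values were not used. The members, pathway lists and marker lists were chosen with earlier results of these data known. Every member is counted and, other than 1 that is not reported here by name, named. Other pathway genes are named only as partners of a member or where a count was of 5 or fewer, and *Usp18*, *Cmpk2*, *Gbp4* and *Cxcl3* were named after their values were seen. Alternatives were a fit of all 10 libraries together, no expression filter, RLE size factors, DESeq2 1.42.0, the replicate block, halved counts, other thresholds and leaving out each library. Scripts were tested on simulated data. Promoter windows are from RefSeq (GRCr8).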

Additional observations from a re-analysis of the deposited data

Results flagged for a closer look

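For 14 of the 50 tests between suspension groups, the member's change against Control differed between 2 time points by the direct test in edgeR and by more than 1.5 on the log2 scale. From HS1 to HS3 these were *Il1rl1* (1.91), *Il1rl2* (1.73) and *Tnfaip8l3* (2.43), and from HS1 to HS7 *Il11* (1.91). From HS1 to HS14 it was *Cd80* (-1.85). From HS3 to HS7 they were *C1qtnf6* (-1.65) and *Il1rl1* (-1.82). From HS3 to HS14 they were *C1qtnf6* (-2.36), *Cd55* (-2.14), *Ifitm1* (-1.99), *Il33* (-2.21), *Il6* (1.60) and *Ptgs1* (-1.62), and from HS7 to HS14 *Il6* (1.91). Groups of 2 libraries were too small to look for a library that stands apart.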

How the results depend on the processing

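Of the 27 called tests, 23 passed the threshold under every alternative fit that gave a value, and 4 were lost when 1 library was left out: *Il11* from HS1 to HS7, *Il33* from HS3 to HS7 and from HS7 to HS14, and *C1qtnf6* from HS7 to HS14. Of the 23 not called, 5 passed under at least 1 alternative, and none that passed changed sign. With the log2 fold change also beyond 1.5, the calls numbered 3 from HS1 to HS3, 1 from HS1 to HS14, 2 from HS3 to HS7 and 1 from HS7 to HS14. Leaving out each library gave 0 to 2 calls from HS1 to HS7 (0 without HS1 replicate 2 or HS7 replicate 1, 2 without HS7 replicate 2) and 2 to 4 from HS7 to HS14 (2 without HS14 replicate 2). The members' median change in HS1 was -1.417 with DESeq2, -1.416 without the expression filter and -1.418 with all 10 libraries in 1 fit, where *Cfd* had a value as well. With each library left out it lay between -1.61 and -1.18 for HS1, between 0.48 and 0.67 for HS3, between -1.07 and -0.75 for HS7, and between -1.37 and -1.17 for HS14. Same-numbered libraries did not deviate together (correlations of replicate differences of -0.0165 to 0.0417 over 13691 genes). With the replicate number as a block, which leaves 1 residual degree of freedom, all 50 tests kept their side of the threshold, and the medians were -1.62, 0.66, -0.83 and -1.35 in HS1, HS3, HS7 and HS14. Depth limits the members near 1 CPM or below most, such as *Cfd*, *Tnfaip8l3* and *Ptger1*.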
